A study of Mus musculus with 12 samples.

Results

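The miR-17-92 and miR-106b-25 clusters are 2 short stretches of the mouse genome that each give rise to several microRNAs (miRNAs) from a shared precursor transcript. Their 9 main-strand miRNAs were taken by name from the 1096 miRNA names of the array: mmu-miR-17, mmu-miR-18a, mmu-miR-19a, mmu-miR-19b, mmu-miR-20a and mmu-miR-92a for miR-17-92, and mmu-miR-106b, mmu-miR-93 and mmu-miR-25 for miR-106b-25. The prefix mmu, for mouse, is left out from here on. Names ending in a star, which mark the less abundant strand of a hairpin, were not members. The levels were measured in quadriceps muscle, a large muscle of the thigh, at postnatal day 7 in 6 cofilin-2 null mice (KO1 to KO6) and 6 wild-type mice (WT1 to WT6), all labelled as strain C57Bl/6 and with no further treatment, allele or age given. Cofilin-2 is the muscle form of an actin-binding protein of the thin filament, and mice lacking it are myopathic. Per the methods the mice were 6 pairs of littermates, with no source saying that a sample number marks a pair, and whole muscle was taken, so that muscle fibers and the other cells of the tissue were measured together. The labels name no promoter or Cre driver for the deletion, and a miRNA array does not measure Cfl2, so that the genotypes were not checked from the values. Every WT sample carried the dye Cy5 and every KO sample Cy3, so that genotype and dye cannot be told apart in any comparison.

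A mature miRNA guides a silencing complex to messenger RNAs that pair with its seed, the bases near its 5′ end. miR-17-92 is transcribed as a single precursor under control of growth-promoting factors such as Myc and the E2F family, and it is best known for favoring proliferation and survival. Its members fall into several seed families. The miR-17 family represses cell cycle inhibitors such as p21, and miR-92a is known for its action on endothelial cells. miR-106b-25 is a relative of miR-17-92 that lies within Mcm7, a gene for a subunit of the DNA replication helicase.

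The mature sequences show why the members are described by seed as well as by cluster. All 9 members matched a RefSeq mature miRNA of build GRCm38.p6, and each is written 5′ to 3′ with its seed, bases 2 to 8, in capitals. The miR-17 family had members in both clusters.
miR-17: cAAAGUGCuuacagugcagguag
miR-20a: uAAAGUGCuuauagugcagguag
miR-106b: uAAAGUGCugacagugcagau
miR-93: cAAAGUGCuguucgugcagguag
The seed of miR-18a differs from that of the miR-17 family.
miR-18a: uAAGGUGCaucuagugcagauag
The miR-19 family lies in miR-17-92.
miR-19a: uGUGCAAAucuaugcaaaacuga
miR-19b: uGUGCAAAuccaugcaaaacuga
The last family joins the final hairpin of each cluster.
miR-92a: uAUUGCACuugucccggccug
miR-25: cAUUGCACuugucucggucuga

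With positions counted from 1 at the 5′ end, miR-17 and miR-20a differed by 2 bases (C1U and C12U, miR-17 base given before the position), and miR-17 and miR-93 by 4 (U10G, A11U, C12U and A13C). miR-19a and miR-19b differed by the single substitution U11C. The probe sequences of the array are not given in the sources used here, so that how far a probe also bound a near-identical relative was not tested.

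In GRCm38.p6 the 6 hairpins of miR-17-92 lie on the plus strand of chromosome 14 at chr14:115043671-115044506, a span of 836 bases, in the order Mir17, Mir18, Mir19a, Mir20a, Mir19b-1 and Mir92-1. Only Mir92-1 falls within the bounds that RefSeq gives for the host gene Mir17hg. The 3 hairpins of miR-106b-25 lie on the minus strand of chromosome 5 at chr5:138165321-138165818, all within the bounds of Mcm7. The mature sequences of miR-19b and miR-92a also come from Mir19b-2 and Mir92-2 of a further cluster, miR-106a-363, on chromosome X. An intensity of either name therefore cannot be assigned to 1 locus.

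The deposited values are normalized intensities, the brightness of the spots for a miRNA on a linear scale, which allow a miRNA to be compared between samples but not with another miRNA. Summed over all names they lay between 594311 and 636136 per sample. The muscle miRNAs miR-1a and miR-206 were at 39535 to 71199 and at 21266 to 29194 over the 12 samples, whereas miR-499 and miR-208b of slow and cardiac muscle were at 30 or less in every sample. KO and WT were compared with limma on log2 intensities in the 370 names whose intensity averaged 32 or more. A log2 change is KO minus WT, and SE is its standard error. Of the members, 8 passed this filter. miR-19a did not, with intensities of 0 to 10 in WT and 0 to 6 in KO, and it was not tested.

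The 8 tested members were all lower in KO than in WT, with log2 changes of -0.14 to -0.85 and a median of -0.66, where the median over all 370 tested miRNAs was -0.08 and 56.8% were lower in KO. After cyclic loess normalization miR-92a was no longer lower. miR-17, miR-93 and miR-25 were past 0.05 without adjustment in limma, which is the threshold of the methods, so that 3 of 8 members passed it in the downward direction. Of all miRNAs tested 9.73% did so in that direction and 19.5% in either. None of the members passed 0.05 after adjustment in limma, where 0.27% of all tested miRNAs passed lower in KO and 1.35% passed in either direction. In miR-17-92, 1 of 5 tested members passed the unadjusted threshold and the median log2 change was -0.53. In miR-106b-25, 2 of 3 passed it and the median was -0.78. The members of a cluster share a precursor and those of a seed family share sequence, so that the members are not independent of each other. The call of miR-93 at the unadjusted threshold was lost with cyclic loess, with the methods' t-test, and on leaving out any one of WT1, WT2, WT6, KO3, KO4, KO5 or KO6, which left 1 of 3 members of miR-106b-25 past it. The 12 mice limit the precision of every value.

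**Figure D1:**
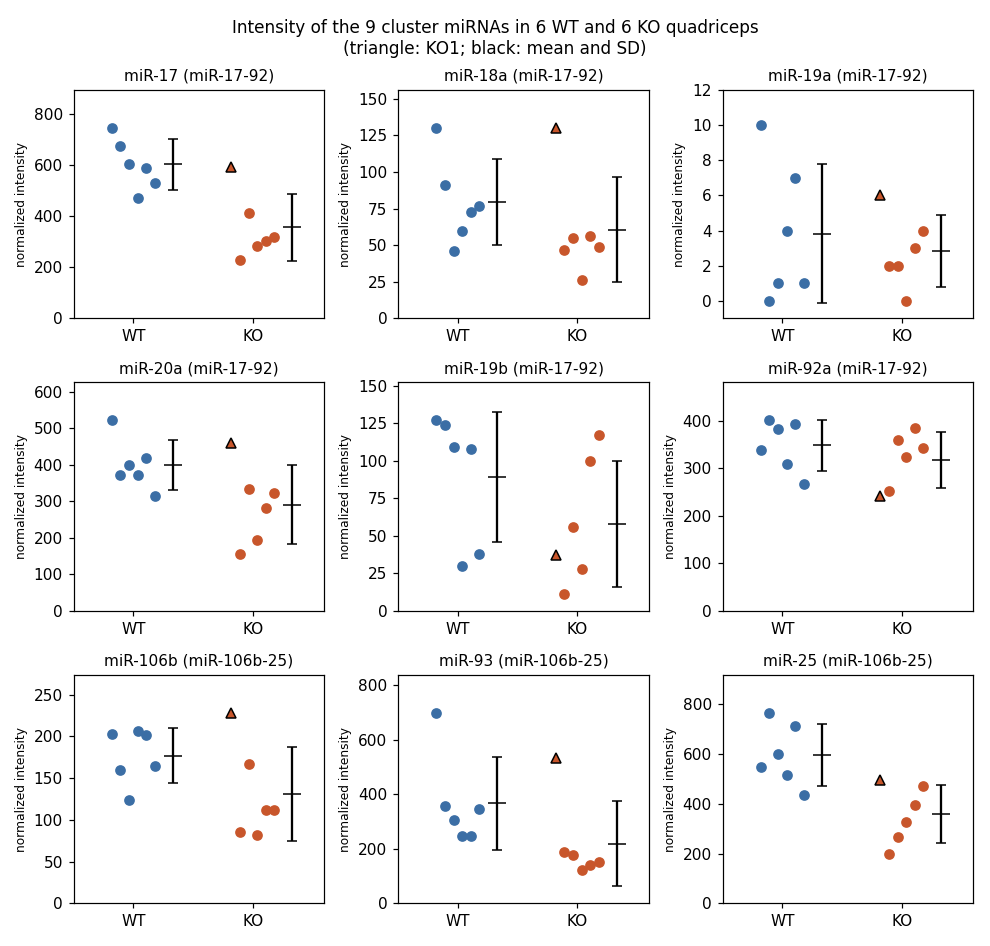
Normalized intensity (linear, each panel from near 0) of the 9 cluster miRNAs in the 6 WT (blue) and 6 KO (orange) samples, with the group mean and SD in black and KO1 drawn as a triangle. For miR-17 the KO samples other than KO1 lie at 229 to 412, under the lowest WT value of 472, while for miR-92a the groups share most of their range and miR-19a is near 0 throughout.

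miR-17, the member that gives its seed family its name, had an intensity of 472 at the lowest, 595.5 at the median and 744 at the highest in WT. In KO these values were 229, 310 and 592. All KO samples but KO1 lay below every WT sample, and KO1 lay among the WT values. Mean intensity was 601.5 ± 97.9 (SD, n = 6) for WT against 355.8 ± 130 (SD, n = 6) for KO, a ratio of 0.592. On the log2 scale the change was -0.81 (SE 0.237, limma adjusted p = 0.0896), rank 20 from the largest fall of the 370.

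miR-20a, which shares the seed and all but 2 bases of miR-17, lay between 315 and 521 in WT, with a median of 386. In KO it lay between 156 and 458, with a median of 302. Of the KO samples 3 were below every WT sample. Between the groups the log2 difference was -0.53 (SE 0.259, limma adjusted p = 0.277), which did not pass either threshold.

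In the other cluster, miR-106b had intensities of 124 to 206 in WT (median 183.5) and of 82 to 228 in KO (median 112). Here 4 KO samples lay below every WT sample, and KO1 was the highest of all 12 samples. Between KO and WT this came to -0.51 on the log2 scale (SE 0.268, limma adjusted p = 0.317).

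miR-93, the member of this seed family that lies between miR-106b and miR-25, lay between 246 and 699 in WT, with a median of 326. In KO it lay between 121 and 532, with a median of 164.5. WT1 at 699 and KO1 at 532 stood above all others, and the 5 other KO samples, at 121 to 189, were below every WT sample. This gave a log2 difference of -0.85 (SE 0.362, limma adjusted p = 0.210), the largest of the 8.

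The miR-92 seed family has a member in each cluster. miR-25 had intensities of 437 to 765 in WT (median 573) and of 197 to 496 in KO (median 360.5). The KO values reached into the WT range in KO1 (496) and KO6 (470). Mean intensity was 596.0 ± 124 (SD, n = 6) for WT against 358.3 ± 117 (SD, n = 6) for KO, a ratio of 0.601. The change on the log2 scale was -0.78 (SE 0.254, limma adjusted p = 0.109).

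miR-92a, by contrast, lay between 267 and 401 in WT, with a median of 360.5, and between 242 and 385 in KO, with a median of 334. The groups overlapped over most of their range, and KO1 was the lowest of all 12 samples. KO minus WT was -0.14 on the log2 scale (SE 0.192, 95% confidence interval -0.55 to 0.27, limma adjusted p = 0.752). It was the steadiest member, with a within-group SD of 0.255 on the log2 scale against a median of 0.548 over all tested miRNAs.

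miR-19b was the least steady, with a within-group SD of 1.11 on the log2 scale. In WT it was at 108 to 127 in 4 samples and at 30 in WT4 and 38 in WT6. In KO it ran from 11 in KO2 to 117 in KO6, with a median of 46.5. Its log2 difference of -0.80 (SE 0.571, limma adjusted p = 0.480) was near that of miR-17 in size. It was well within its own spread, as its 95% confidence interval ran from -2.03 to 0.42. The size depended on the dim values. With a floor of 32 it was -0.53, and with 50 added to each intensity -0.38, against -0.81 and -0.72 for miR-17.

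miR-18a, which has its own seed, lay between 46 and 130 in WT (median 75) and between 26 and 130 in KO (median 52). KO1 and WT1 both had 130, and only KO4, at 26, was below every WT sample. KO minus WT was -0.49 on the log2 scale (SE 0.349, limma adjusted p = 0.480).

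**Figure D2:**
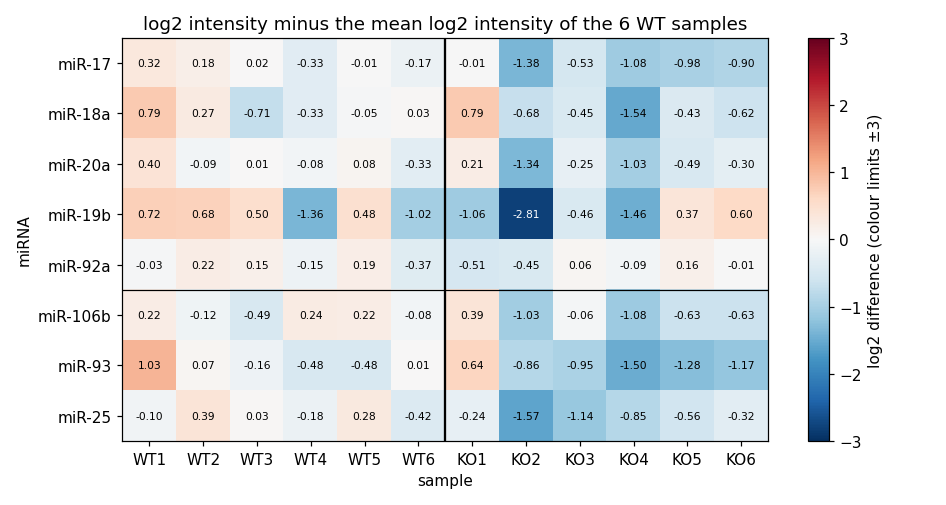
For each of the 8 tested members (rows, miR-17-92 above the line and miR-106b-25 below), the log2 intensity in each sample (columns) minus the mean log2 intensity of the 6 WT samples; red is above and blue below the WT mean. KO2 and KO4 are below it for all 8 members, and KO1 is above it for 4 of them.

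The KO samples differed among themselves. Whether same-numbered WT and KO samples shared an array is not stated, so that differences between mice and between arrays cannot be told apart. Taking the median over the 8 members of the log2 difference from the WT mean, KO2 was at -1.19 and KO4 at -1.08. KO3, KO5 and KO6 lay between -0.46 and -0.53, and KO1 at 0.10. KO2 and KO4 were below the WT mean for 8 of 8 members and KO1 for 4. Among the KO samples KO1 had the highest value for 6 members, the exceptions being miR-19b and miR-92a. The WT samples ran from -0.26 in WT4 to 0.36 in WT1, and WT1 was the highest WT sample for 5 members. Over all 370 miRNAs the medians of the same difference stayed between -0.10 and 0.04.

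Each sample was left out in turn, and members passed the adjusted threshold only when KO1 was left out. KO1 is described for that reason, after the values were seen. It held the highest KO value for 6 members, so that leaving it out makes their falls larger by construction. Without KO1 the log2 change was -0.97 for miR-17 (adjusted p = 0.0122), -1.15 for miR-93 (adjusted p = 0.0231) and -0.89 for miR-25 (adjusted p = 0.0389, all from limma). These 3 of 8 members stand against 7.3% of all miRNAs that were lower in KO at the adjusted threshold without KO1, and 13.2% in either direction. At the unadjusted threshold 6 of 8 members passed, all but miR-19b and miR-92a, against 15.4% of all. For miR-17 and miR-93 the 5 other KO samples lay below every WT sample, which held for 3.78% of all tested miRNAs without KO1 and for 0.811% with it, none of them a member. The ratio of the mean intensities, KO over WT, was 0.513 for miR-17 and 0.425 for miR-93 without KO1, against 0.592 and 0.596 with it. For miR-93 WT1 also stood above the rest of its group. Leaving out WT1 in place of KO1 gave miR-93 a log2 change of -0.65 (limma adjusted p = 0.372).

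**Figure D3:**
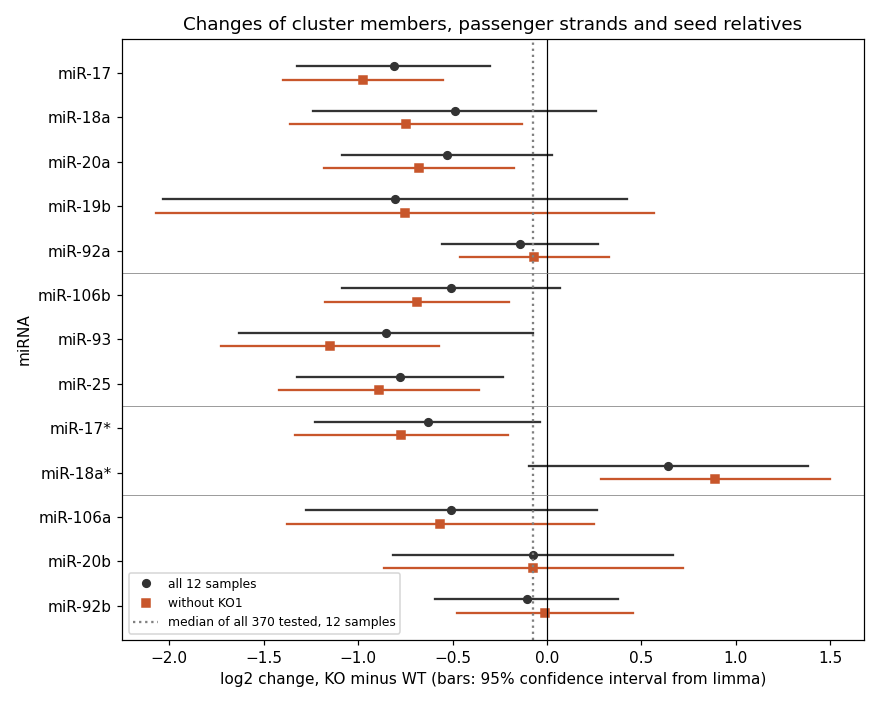
log2 change, KO minus WT, with its 95% confidence interval from limma for the 8 tested members, the 2 tested passenger strands and the 3 tested seed relatives, in all 12 samples (black circles) and without KO1 (orange squares); the dotted line is the median of all 370 miRNAs tested, -0.08. The intervals of miR-17, miR-93 and miR-25 lie below 0 in both fits, that of miR-92a spans 0 in both, and miR-18a* points the other way from miR-18a.

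Whether members moved by different amounts was tested on the log2 ratio of 2 members within a sample, in which a scaling of the sample cancels. There were 28 pairs among the 8 members, 13 within a cluster, 15 between the clusters and 7 within a seed family. With all 12 samples 2 pairs had a two-sided exact permutation p under 0.05, and none of the 28 passed after Benjamini-Hochberg adjustment over the pairs. Both pairs held miR-92a. The log2 change of miR-17 minus that of miR-92a was -0.67 (95% interval -1.26 to -0.08, exact p = 0.0281, adjusted p = 0.394). miR-92a minus miR-25, of the same seed, differed by 0.64 (95% interval 0.13 to 1.15, exact p = 0.0281, adjusted p = 0.394).

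Without KO1 these were the 2 pairs that passed the adjusted threshold, with differences of -0.91 for miR-17 minus miR-92a and 0.82 for miR-92a minus miR-25. Each had an exact p of 0.00216, the smallest that 5 samples against 6 allow, and an adjusted p of 0.0303. KO1 was the lowest sample for miR-92a and the highest KO sample for miR-17 and miR-25. Leaving it out therefore widens these differences by construction, and no pair passed when any other sample was left out. miR-92a and miR-17 belong to the same cluster and miR-92a and miR-25 to the same seed family.

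Within the miR-17 seed family none of the 6 pairs passed either threshold with all 12 samples. miR-17 minus miR-20a, which share a cluster, came to -0.28 (95% interval -0.55 to -0.01, exact p = 0.0541, adjusted p = 0.505). miR-17 minus miR-93, which are in different clusters, came to 0.04 (95% interval -0.53 to 0.62, exact p = 0.881), and miR-20a minus miR-106b to -0.02 (95% interval -0.38 to 0.34, exact p = 0.887).

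**Figure D4:**
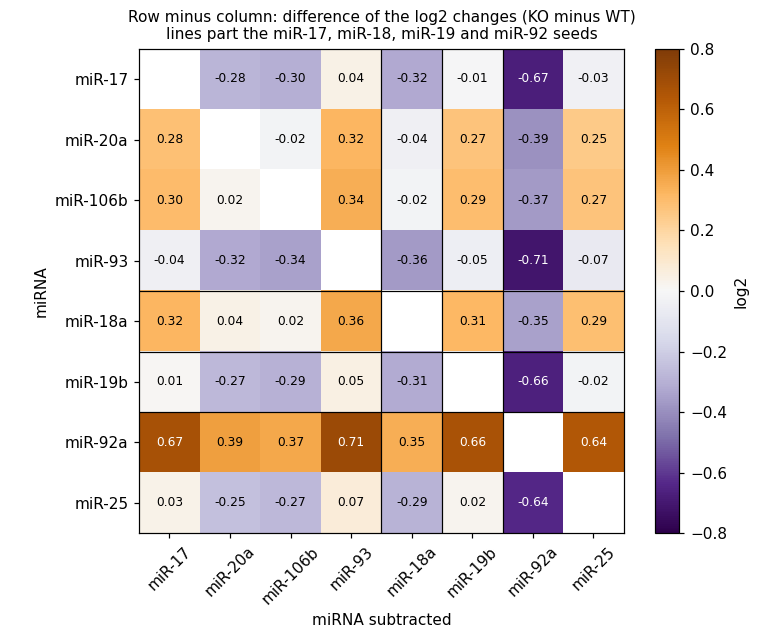
Difference between the log2 changes of 2 members, row minus column, for the 8 tested members ordered by seed family, with purple where the row member had the lower log2 change and orange where it had the higher. The row of miR-92a is positive against all 7 other members, from 0.35 against miR-18a to 0.71 against miR-93, and no pair passed after adjustment over the 28 pairs.

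Each hairpin also yields a passenger strand, the partner of the main strand, which is usually degraded. The array listed 11 passenger strands of hairpins that give a member. Of these, miR-19b-2* and miR-92a-2* come from the hairpins on chromosome X. Of the 11, 2 passed the filter on dim miRNAs, and 1 of these passed the unadjusted threshold. They are shown with the bases 2 to 8 in capitals because their values lay on opposite sides of WT and their seeds differ from those of the main strands.
miR-17*: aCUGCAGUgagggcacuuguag
miR-18a*: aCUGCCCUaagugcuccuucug

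miR-17* was lower in KO, as its main strand was, and it is the strand that passed. It lay between 32 and 67 in WT (median 44.5) and between 17 and 50 in KO (median 29.5), with KO1 again the highest KO sample. KO minus WT came to -0.63 on the log2 scale (SE 0.278, limma adjusted p = 0.223), beside -0.81 for miR-17.

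With all 12 samples miR-18a* did not pass, and its values lay higher in KO. It ran from 52 to 116 in WT, with a median of 72.5, and from 50 to 208 in KO, with a median of 138.5. KO2, KO3, KO4 and KO5 were above every WT sample, at 120 to 208, and KO1, at 50, was below all of them. The log2 difference was 0.64 (SE 0.342, limma adjusted p = 0.323), and 0.89 without KO1 (adjusted p = 0.0546). miR-18a was at -0.49 in the same fit, and the difference between these strands was not tested.

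Relatives that share a seed but come from other loci passed neither threshold or were too dim to be tested. The RefSeq table holds 7 mature names with the miR-17 seed, 2 with the miR-18 seed, 2 with the miR-19 seed and 6 with the miR-92 seed, of 1679 mature names in all. Of the 7 relatives listed on the array outside these clusters, 3 passed the filter, all 3 lay lower in KO, and none passed the unadjusted threshold. miR-18b, miR-363-3p, miR-32 and miR-367 were at 11 or less in every sample.

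The closest of them in sequence is miR-106a, which differs from miR-17 by U10A alone; it and miR-20b come from the cluster on chromosome X.
miR-106a: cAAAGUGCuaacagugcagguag
miR-20b: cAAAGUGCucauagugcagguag
miR-106a lay between 71 and 133 in WT (median 93) and between 24 and 136 in KO (median 72), and the groups overlapped with KO6 the highest of all samples. KO minus WT came to -0.51 on the log2 scale (SE 0.358, limma adjusted p = 0.479). miR-20b had a log2 difference of -0.07 (SE 0.345, adjusted p = 0.946) and miR-92b, of the miR-92 family, by -0.11 (SE 0.225, adjusted p = 0.865, both from limma). Whether the relatives differed from the cluster members was not tested.

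The names nearest to the members in pattern over the 12 samples were also sought. Each log2 profile was centred on its own mean, and its root-mean-square difference from the median profile of the 8 members was taken as a measure of likeness. Among the members it was smallest for miR-20a (0.142) and miR-17 (0.161) and largest for miR-19b (0.849). Between them lay miR-106b (0.274), miR-25 (0.316), miR-18a (0.362), miR-93 (0.453) and miR-92a (0.463). A member is part of the median it is measured against, which the names outside the members are not. The 5 miRNAs outside the members that came closest were miR-22 (0.235), miR-455 (0.243), miR-28 (0.251), miR-17* (0.260) and miR-1983 (0.266). They were nearer to the median profile than every member but miR-20a and miR-17, so that the pattern was not particular to the clusters. The log2 changes of these 5 were -0.25, -0.52, -0.58, -0.63 and -0.34, of which miR-17* alone passed the unadjusted threshold. These likenesses are descriptions over the 12 samples, with no test.

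Markers of other cell types in the muscle were measured beside the members, because in whole tissue fewer cells of a type and less of a miRNA per cell cannot be told apart. Of the 2 endothelial names, miR-126-3p lay between 2230 and 4741 in WT and between 760 and 2705 in KO, a log2 difference of -1.20 (SE 0.313, limma adjusted p = 0.0615, and 0.0242 without KO1). Its partner strand miR-126-5p was at 6 or less in every sample. Their summed intensity was 2233 to 4745 in WT and 765 to 2709 in KO. KO2 was the lowest KO sample for miR-126-3p, as for miR-17, miR-20a, miR-25 and miR-19b. For miR-18a, miR-106b and miR-93 the lowest KO sample was KO4, and for miR-92a it was KO1. The highest KO sample was KO6 for miR-126-3p and miR-19b, KO5 for miR-92a, and KO1 for the other tested members. The part of endothelial cells in the lower values of the members was not tested.

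Of the 2 erythroid names, miR-451 ran from 43 to 417 in WT and from 16 in KO2 to 318 in KO1, which were also the KO samples with the lowest and the highest member median. In WT it was highest in WT2 and lowest in WT6, whereas the member median was highest in WT1 and lowest in WT4. KO minus WT was -0.94 on the log2 scale (SE 0.693, limma adjusted p = 0.497), and miR-144 was at 6 or less. The summed erythroid intensity was 49 to 420 in WT and 18 to 318 in KO, and its part in the result was not tested. The 5 names of white blood cells, miR-223, miR-142-3p, miR-142-5p, miR-150 and miR-155, were too dim to be tested, with a summed intensity of 38 to 79 in WT and 35 to 94 in KO.

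Names of smooth muscle and mesenchyme numbered 5, all tested, and 0 of them passed the unadjusted threshold, with a median log2 change of -0.18. The lowest was miR-145 at -0.60 (SE 0.286, limma adjusted p = 0.261), which without KO1 was at -0.74 and passed the unadjusted but not the adjusted threshold (limma adjusted p = 0.0905). Their summed intensity was 19629 to 26313 in WT and 17882 to 26229 in KO. It was made up mostly of miR-214 and miR-199a-3p, so that miR-145 counted for little in it. Of the 6 skeletal muscle names listed on the array 4 were tested, with log2 changes of -0.38 to 0.17 and none past the unadjusted threshold. Their summed intensity, mostly that of miR-1a and miR-206, was 81016 to 93263 in WT and 78886 to 105688 in KO.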

How the data were processed

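Total RNA of 12 quadriceps samples was isolated with a mirVana kit and hybridized by LC Biosciences to an array for mouse miRBase version 17. The 1 deposited table gives, for each name and sample, a whole-number intensity on a linear scale that the authors had normalized. The normalization method, background correction and spot averaging are not given in the sources used here, and a correction that differed between the dyes would act on the groups. Samples were grouped by genotype and number in their titles; all 12 were used and no pair held identical values.

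A floor of 1 was set and log2 taken. Names with a mean intensity of at least 32 were tested with limma 3.58.1 in R 4.3.3, two-sided, with Benjamini-Hochberg adjustment over all 370. The threshold was 0.05, unadjusted as in the methods and adjusted. Intervals of members are from limma; those of pairs use the pooled SD over samples. Pairs were tested by exact permutation over the 924 assignments of the samples. The plan named 36 pairs; 28 are reported because miR-19a was too dim. On simulated data with 370 miRNAs the test recovered 53% of log2 changes of 1 and 93.7% of changes of 2, with 4.09% false calls. The simulated noise was independent between miRNAs and samples, so that it held no sample that lay apart as KO1 did. Changes under 1, as those of the members were, were not simulated. miR-1 and miR-363 of the lists are miR-1a and miR-363-3p in the table; miR-486, miR-19b* and miR-92a* were not analysed here. Named are all members, their passenger strands and seed relatives, and the 5 miRNAs most like them. The members, lists and tests were chosen with earlier results of these data known. The alternatives were another floor, a pseudocount, other filters, other normalizations and the replicate number as a block. Others were a t-test (named in the methods for the mRNA arrays only), limma with a trend or array weights, and each sample left out. Sequences and positions are from RefSeq (GRCm38.p6). Plots were drawn with matplotlib 3.10.9. The mRNA arrays and qRT-PCR were not analysed here.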

Additional observations from a re-analysis of the deposited data

Results flagged for a closer look

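A sample was looked at again where, on the log2 scale, the distance to its closest neighbor divided by its group's full range exceeded 0.625, Dixon's limit for 6 samples. Of 16 groups (8 members in WT and in KO) 2 met this, where chance gives about 0.8. Both concern miR-93, of miR-106b-25. In WT1 it was at 699 against 246 to 358 for the rest of WT (share 0.641), and in KO1 at 532 against 121 to 189 for the rest of KO (share 0.699). The causes were not tested.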

How the results depend on the processing

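For the 8 tested members, 176 of 184 alternative values kept their direction and their side of the adjusted threshold. miR-92a changed sign to 0.0304 with cyclic loess, the replicate block added or not. miR-17, miR-93 and miR-25 passed the adjusted threshold with array weights and without KO1; array weights gave KO1 a weight of 0.156, against 0.500 to 3.31 for the other samples. The number of members past the adjusted threshold, 0 as reported, was 3 with array weights and 0 to 3 with a sample left out. Past the unadjusted threshold it was 5 with median centring, in place of 3, and 2 to 6 with a sample left out. It was 2 with cyclic loess and with the t-test, where miR-93 no longer passed. The median log2 change of the members ran from -0.75 to -0.43 with a sample left out. Pairs that differed numbered 0 to 2 with a sample left out, and 0 among all 36 pairs with miR-19a. The plan named those 36 pairs, and they were run as an alternative once miR-19a had proved too dim. Over all miRNAs, 5 passed the adjusted threshold as reported, 1 with no filter, 8 with quantile normalization, 11 with cyclic loess, 14 with a pseudocount of 50 and with a variance trend, 21 with a mean intensity of at least 500 (which none of the members reached) and 115 with array weights; leaving out a sample gave 3 (WT3, KO2) to 49 (KO1), with 8 without KO4 and 11 without WT4. Past the unadjusted threshold 72 became 123, 45 and 156 with no filter, with at least 500 and with array weights, and 57 to 106 with a sample left out. The filters change the number tested; for the rest the cause was not tested. Whether the sample numbers mark the littermate pairs is not stated: same-numbered deviations correlated by -0.453 to 0.594, and 2 of 6 WT samples correlated best with their own number, so the block was not taken as the pairing. With the replicate block 0 members passed the adjusted and 4 the unadjusted threshold (miR-20a beside miR-17, miR-93 and miR-25), the standard error of miR-93 being 0.193 in place of 0.362, and over all miRNAs 4 and 89.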

Other observations

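The passenger strands too dim to be tested are given as values. miR-19b-1* was at 37.8 ± 7.39 in the 6 WT samples and at 25.3 ± 7.87 in the 6 KO samples (mean ± SD). In miR-106b-25, miR-106b* was at 20.8 ± 6.24 and 16.2 ± 5.15, miR-93* at 16.5 ± 4.32 and 17.7 ± 6.86, and miR-25* at 15.5 ± 4.51 and 9.83 ± 4.12 in WT and KO (mean ± SD, n = 6 each). miR-19a*, miR-19b-2*, miR-20a*, miR-92a-1* and miR-92a-2* did not exceed 10 in any sample.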
